A study of Mus musculus with 8 samples.

Results

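The estrogen receptors and their closest relatives among the steroid receptors were described in forepaw skin of Krt16 null and wild-type (WT) mice. The 9 members were taken by gene symbol from the array annotation: Esr1, Esr2, Esrra, Esrrb, Esrrg, Gper1, Pgr, Nr3c1 and Nr3c2. Of these, 8 have a probe set of their own among the 30672 genes that do, and the only probe set of Esrra is shared with Mir6990. The tested mice were 4 Krt16 nulls, in which bacterial LacZ takes the place of the Krt16 coding sequence, and their skin was labelled as lesion. They were set against 4 WT littermates with skin labelled as normal. All were C57Bl/6 mice aged 8 weeks, with 2 males and 2 females per genotype and 1 Affymetrix array per mouse. Lesion status ran with genotype in all 8 mice, and the effects of the 2 cannot be told apart.

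Steroid receptors are transcription factors that bind a hormone, move onto DNA and switch target genes on or off. Esr1 and Esr2 encode the estrogen receptors alpha and beta, and Pgr, the progesterone receptor, is a classic target of estrogen receptor alpha. Nr3c1 encodes the glucocorticoid receptor, which restrains inflammation in skin and helps to form the epidermal barrier, and Nr3c2 the mineralocorticoid receptor, which controls sodium transport genes. The estrogen-related receptors (Esrra, Esrrb, Esrrg) resemble estrogen receptors in sequence but bind no estrogen, and in muscle and fat they drive mitochondrial genes together with PGC-1 coactivators. Gper1 encodes a membrane receptor coupled to G proteins that responds to estrogen.

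Levels are given as log2 RMA signals, and a difference is null minus WT on that scale with its standard error (SE). A gene was called when its Benjamini-Hochberg adjusted p, over all 30672 genes in limma, was under 0.05. Arrays have no read depth, and their number limits the precision. The medians of the negative control probe sets ran from 4.26 to 4.46, those of the positive controls lay 3.35 to 3.54 above them on the same array, and array medians ran from 3.97 to 4.03. Krt16 itself had signals of 6.83, 6.87, 6.89 and 6.99 on the null arrays, against 8.48, 8.20, 7.05 and 9.66 on the WT arrays. Each null array lay under each WT array, and the difference of -1.45 (SE 0.44) had an adjusted p of 0.0617. The null signals still lay above the negative control medians of their arrays, and the cause was not tested. The keratinocyte markers were bright, with list means of 10.08 to 10.25 in null skin and 9.93 to 10.17 in WT skin.

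Of the 8 members with their own probe set, 3 fell in null skin, namely Pgr, Nr3c1 and Nr3c2, and none rose. Across all genes 13.0% were called, 5.98% as lower and 7.04% as higher in null skin. The median difference of the 8 members was -0.19, against 0.01 over all genes. Of the 8 estimates 6 were below 0, as were 13909 of the 30672 over all genes. In bulk skin, fewer cells of a type and less RNA per cell cannot be told apart.

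**Figure D1:**
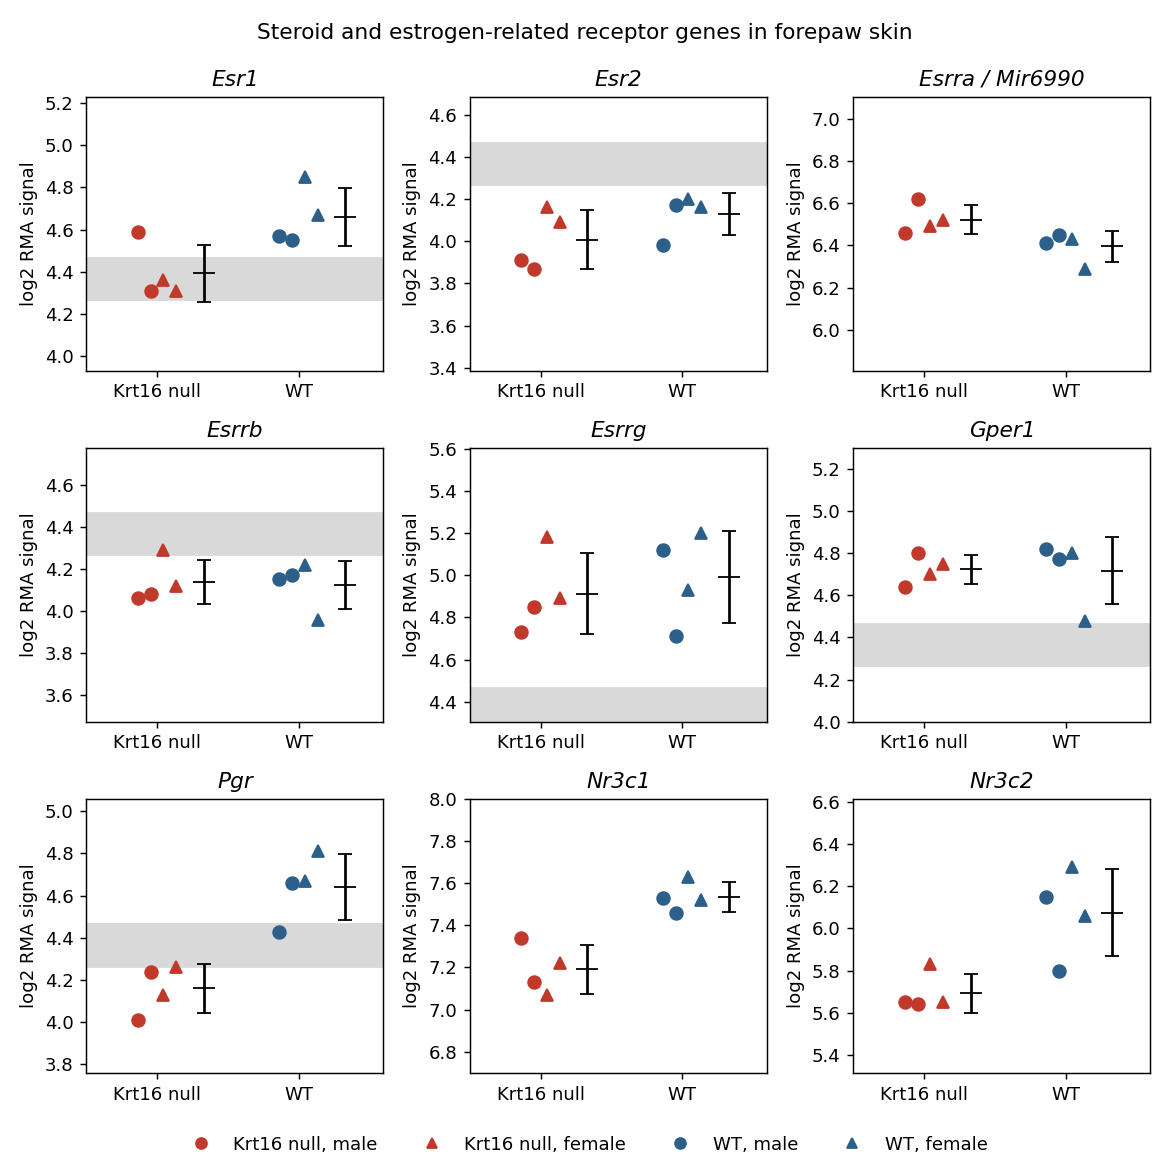
Signal of each member on each array, 1 panel per gene, on the log2 RMA scale, with null arrays left of WT arrays, circles for males and triangles for females. Black bars are the mean ± SD of 4 arrays and the grey band spans the medians of the negative controls, 4.26 to 4.46. The null arrays of Pgr lie at 4.01 to 4.26, and those of Nr3c1 at 7.07 to 7.34, below the WT arrays of the same gene.

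Pgr fell from a dim signal. On the null arrays (male 1, male 2, female 1 and female 2) its signals were 4.01, 4.24, 4.13 and 4.26, against 4.43, 4.66, 4.67 and 4.81 on the WT arrays in the same order. No null array reached the lowest WT array. All 4 null signals lay under the negative control median of their own array, and no WT signal did. The means were 4.16 ± 0.11 in null and 4.64 ± 0.15 in WT skin (SD, n = 4 each), a difference of -0.48 (SE 0.08, 95% interval -0.66 to -0.30, limma adjusted p = 0.00612). With the null signals raised to the negative control medians (mean 4.33), the WT mean of 4.64 was 1.25-fold higher. On the WT arrays only 53.3% to 58.7% of the 5222 negative control probe sets were dimmer than Pgr. The gene was dim in both genotypes, so the size of its difference is not exact.

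Nr3c1 was well above background, with 93.8% to 96.5% of the negative control probe sets dimmer on each array. Its null signals were 7.34, 7.13, 7.07 and 7.22, against 7.53, 7.46, 7.63 and 7.52 in WT skin. The ranges did not overlap. The mean was 7.19 ± 0.12 in null and 7.54 ± 0.07 in WT skin (SD, n = 4 each), so that it fell by 21.2% on the linear scale (difference -0.34, SE 0.072, 95% interval -0.51 to -0.18, adjusted p = 0.0155). Pgr and Nr3c1 were the 2 members of 8 whose null arrays all lay under all WT arrays, an order that 8.77% of all genes shared, while 10.1% of genes had the opposite order.

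Nr3c2 read 5.65, 5.64, 5.83 and 5.65 on the null arrays, against 6.15, 5.80, 6.29 and 6.06 on the WT arrays. The groups overlapped at 1 point, where female null 1 lay above male WT 2. Its mean was 5.69 ± 0.09 in null and 6.08 ± 0.21 in WT skin (SD, n = 4 each), so that it fell by 23.3% on the linear scale (difference -0.38, SE 0.09, 95% interval -0.59 to -0.18, adjusted p = 0.0248).

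The adjusted p of Nr3c1 and Nr3c2 crossed the threshold when some single arrays were left out, while the differences stayed at -0.40 to -0.30 for Nr3c1 and -0.46 to -0.32 for Nr3c2 without any 1 array. Nr3c1 lost its call when male null 2 (adjusted p = 0.0583) or female null 1 (0.0557) was left out. Nr3c2 lost its call without male null 2 (0.0675), female null 1 (0.0554), female null 2 (0.0721) or male WT 1 (0.0755). Pgr stayed called without any 1 array, with adjusted p between 0.0088 and 0.0255.

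The promoters of Pgr and Nr3c2 are shown because these are the called members whose start region is in the RefSeq table used (GRCm38.p6), and because no match for a receptor element was found in either. Each line gives the 250 bases before the gene's start, on the plus strand, with capitals marking the GC box GGGCGG, or CCGCCC where it lies on the other strand. The Pgr promoter is at chr9:8899583-8899832 and that of Nr3c2 at chr8:76902080-76902329.
Pgr promoter: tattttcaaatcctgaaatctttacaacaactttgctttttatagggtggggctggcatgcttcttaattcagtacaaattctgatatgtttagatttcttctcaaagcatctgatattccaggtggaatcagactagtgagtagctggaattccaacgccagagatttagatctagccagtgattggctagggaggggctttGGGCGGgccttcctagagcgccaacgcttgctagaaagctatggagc
Nr3c2 promoter: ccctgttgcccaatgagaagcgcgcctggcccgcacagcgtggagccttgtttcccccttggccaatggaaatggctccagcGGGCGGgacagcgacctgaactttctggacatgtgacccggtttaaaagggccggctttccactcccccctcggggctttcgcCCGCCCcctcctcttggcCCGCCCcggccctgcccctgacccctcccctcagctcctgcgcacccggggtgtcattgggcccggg

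The promoter of Pgr has 1 GC box and a GC content of 43.6%, and that of Nr3c2 has 3 GC boxes and 68.4%, against a median of 52.4% over all 32851 promoters. A GC box, a site of the Sp1 family, is held by 32.74% of those promoters. Across the 13 promoters of the 8 members with an entry, no match was found on either strand to 4 receptor motifs. These were the estrogen response element GGTCANNNTGACC (in 0.06% of all promoters), the estrogen-related receptor element TCAAGGTCA (0.39%), the single-site motif AGGTCA (14.02%), which is also part of the preceding motif, and the glucocorticoid core ACANNNTGT (5.84%). These letters are absent from these windows, and matches outside them were not searched.

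Esr1, which encodes estrogen receptor alpha, was not called. Its null signals were 4.59, 4.31, 4.36 and 4.31, against 4.57, 4.55, 4.85 and 4.67 in WT skin. Male null 1 lay above the male WT arrays, and the other 3 null arrays lay under every WT array. The gene was dim in both genotypes, with 48.3% to 62.5% of the negative control probe sets dimmer, and female null 2 lay under the negative control median of its array, so the size of its difference is not exact. The mean was 4.39 ± 0.14 in null and 4.66 ± 0.14 in WT skin (SD, n = 4 each), with a difference of -0.27 (SE 0.092, 95% interval -0.47 to -0.059, adjusted p = 0.0957). Without male null 1 it was -0.36 and was called (adjusted p = 0.019).

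Esr2, for estrogen receptor beta, read 3.91, 3.87, 4.16 and 4.09 in null skin, against 3.98, 4.17, 4.20 and 4.16 in WT skin. All 8 signals lay under the negative control median of their array, so the size of its difference of -0.12 (SE 0.064, adjusted p = 0.291) is not exact. Esrrb, best known from pluripotent cells and the inner ear, was under those medians on all 8 arrays too, at 4.06 to 4.29 in null and 3.96 to 4.22 in WT skin. Gper1, the membrane estrogen receptor, had 4.64 to 4.80 in null and 4.48 to 4.82 in WT skin. Their differences were 0.013 (95% interval -0.16 to 0.19) for Esrrb and 0.002 (-0.18 to 0.19) for Gper1, neither called. Gper1 was dim too, with 50.4% to 61.9% of the negative control probe sets dimmer, so neither size is exact.

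Esrrg, which is known from oxidative muscle, had 4.73 to 5.18 in null and 4.71 to 5.20 in WT skin. Its difference of -0.078 (95% interval -0.33 to 0.17, adjusted p = 0.733) was smaller than the SD of either group. The gene was dim, with 58.3% to 68.2% of the negative control probe sets dimmer, so the size of its difference is not exact. The probe set shared by Esrra and Mir6990 read 6.46, 6.62, 6.49 and 6.52 in null, against 6.41, 6.45, 6.43 and 6.29 in WT skin. All null signals lay above all WT signals, as in 10.1% of the 30672 genes with a probe set of their own. The difference of 0.13 (SE 0.064, 95% interval -0.016 to 0.27) was not called over all 65956 non-control probe sets (adjusted p = 0.302), of which 7.34% were. The signal cannot be assigned to either gene.

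**Figure D2:**
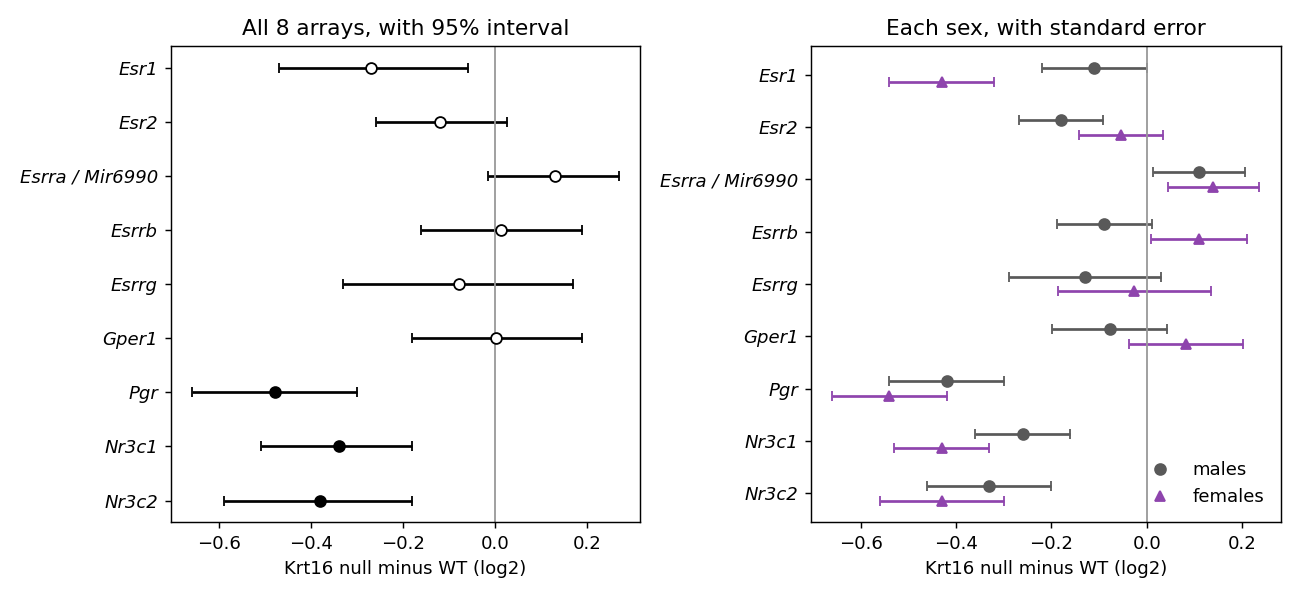
Difference between null and WT signals of the 9 members on the log2 scale, with the 95% interval over all 8 arrays on the left (filled points were called) and the estimate in each sex with its SE on the right. The intervals of Pgr, Nr3c1 and Nr3c2 lie wholly below 0 on the left, at -0.48, -0.34 and -0.38. So does that of Esr1, at -0.27, which was not called, as the intervals are not adjusted for the number of genes.

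The sexes were read separately from a fit of the 4 group means. Pgr differed by -0.42 in males and -0.54 in females (SE 0.12 each), Nr3c1 by -0.26 and -0.43, Nr3c2 by -0.33 and -0.43, and Esr1 by -0.11 (SE 0.11) and -0.43 (SE 0.11). Each of these 4 genes had an estimate below 0 in both sexes. So did Esr2 (-0.18 in males and -0.054 in females) and Esrrg (-0.13 and -0.026). The share of all genes with an estimate below 0 in both sexes was not counted. No member was called in a single sex, where 2.21% of genes were called in males and 3.0% in females. At an unadjusted p under 0.05 in limma, 3 of 8 members passed in males, against 17.6% of all genes, and 4 of 8 in females, against 18.9%.

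No member showed a called difference between the sexes in the effect of genotype, where 0.00652% of genes were called, and at an unadjusted p under 0.05 in limma 0 of 8 members and 4.25% of genes passed. Esr1 had an estimate of -0.32 (SE 0.16, adjusted p = 0.973), female effect minus male effect. Between females and males themselves no member was called either, where 0.0163% of genes were called, and at an unadjusted p under 0.05 in limma 1 of 8 members and 5.0% of genes passed. That member was Esr2, at 0.17 higher in females (SE 0.064, adjusted p = 0.96), under background on every array.

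Skeletal muscle markers moved with genotype in the same arrays. Of 15 markers 13 fell and none rose, the mean of the list was 7.92 to 8.47 in null and 8.68 to 9.53 in WT skin, and the ranges did not overlap. Adipocyte markers fell in 2 of 9 (list means 5.06 to 5.40 in null and 5.33 to 6.04 in WT skin) and dermal fibroblast markers in 2 of 9 (7.84 to 8.23 in null and 8.00 to 8.40 in WT skin). Of all genes 5.98% fell. With the muscle mean as a covariate, the differences were -0.12 (SE 0.11) for Nr3c1, -0.15 (SE 0.15) for Nr3c2, 0.026 for Esr1 and -0.63 (SE 0.15) for Pgr. None of the 3 called members was called in that fit (adjusted p = 0.722 for Nr3c1, 0.754 for Nr3c2 and 0.0832 for Pgr). The muscle mean and sex together held 72.1% of the variance of genotype, and the SEs were wider than without the covariate. Whether cell content played a part in the receptor results was not tested.

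With the dermal fibroblast mean as a covariate Nr3c1 was at -0.23 and Nr3c2 at -0.25 (adjusted p = 0.12 and 0.201), and with the adipocyte mean they were at -0.26 and -0.29 (0.0677 and 0.117). Neither was called in these fits, which were chosen after seeing the data, while Pgr was called in both.

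**Figure D3:**
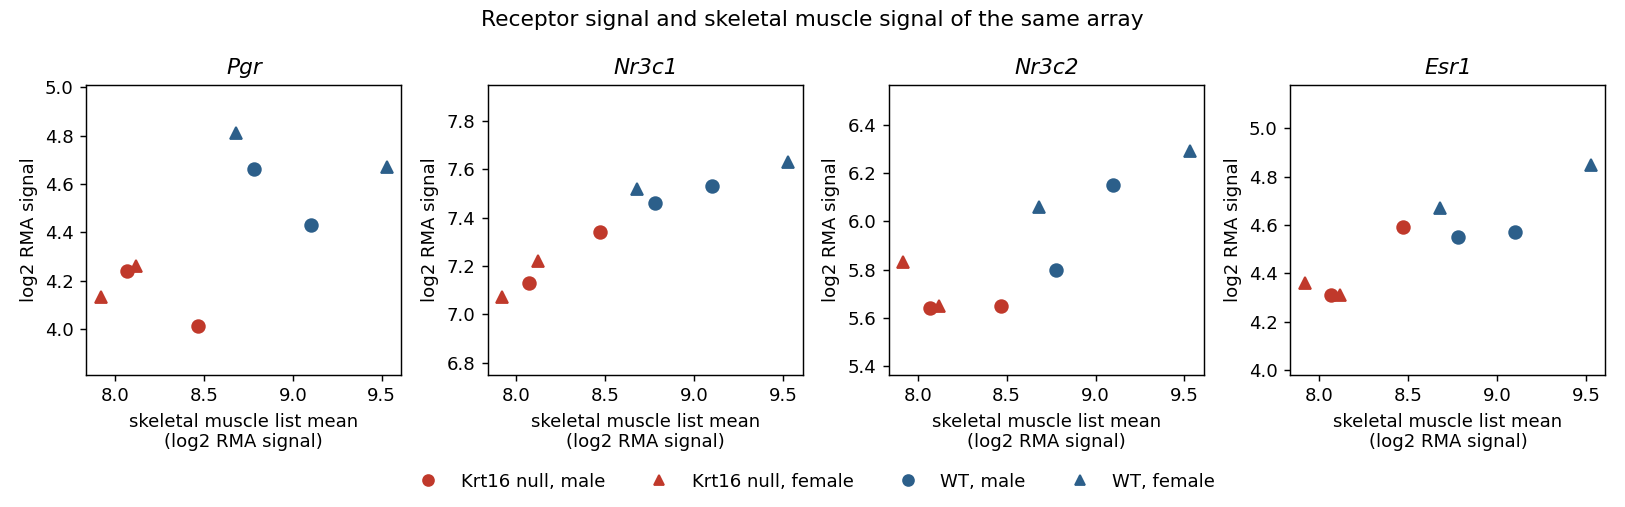
Signal of 4 receptor genes against the mean of the skeletal muscle marker list on the same array, both on the log2 RMA scale, with 4 null and 4 WT arrays and circles for males and triangles for females. The null arrays lie at muscle means of 7.92 to 8.47 and the WT arrays at 8.68 to 9.53, so the 2 groups do not overlap along this axis.

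The genes whose profile over the 8 arrays was most like that of a member were ranked by the root mean square difference of centred log2 signals among 17645 genes. For Nr3c1 they were Chrna1os (0.029), Stau2 (0.035) and Ace (0.037), against a median of 0.218 over genes. For Nr3c2 they were Gab2 (0.049), Adhfe1 (0.068) and Slc25a23 (0.074), with a median of 0.253, and for Esr1 Csgalnact2 (0.04), Maged2 (0.047) and Hdac9 (0.055), with a median of 0.209. The first genes of a ranking lie under the median by selection, and the centred signals hold the genotype difference, so the likeness only describes.

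Among other hormone receptors of the nuclear family, Thrb, a thyroid hormone receptor, fell. Its signals were 7.36, 7.24, 7.29 and 7.35 in null, against 7.40, 7.68, 7.55 and 7.80 in WT skin, a difference of -0.30 (SE 0.083, adjusted p = 0.0456). It was 1 of 3 measured in the list (the vitamin D receptor and Thra did not pass), and the list median was -0.30.

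Of 20 measured estrogen response genes 1 rose, 3 fell and 16 did not pass, with a median difference of -0.069. Over all genes, beside which each list is to be read, 7.04% rose and 5.98% fell, with a median of 0.01. No set test was run. The list was drawn from genes known mainly from breast and uterine cells. Nrip1, a corepressor that binds ligand-bound receptors, averaged 7.24 ± 0.04 in null and 6.97 ± 0.11 in WT skin, a rise of 0.27 (adjusted p = 0.0224). Cited2, a transcriptional coregulator, averaged 8.29 ± 0.08 in null and 8.76 ± 0.07 in WT skin, a difference of -0.47 (adjusted p = 0.0012). In neither gene did the genotypes overlap. Of all genes 10.1% had the array order of Nrip1 and 8.77% that of Cited2. Mybl1, a transcription factor of the Myb family, fell by 0.27 (adjusted p = 0.0361). It was dim, at 4.54 to 4.64 in null and 4.74 to 5.03 in WT skin, little above the negative control medians, so this size is not exact. Rara, a retinoic acid receptor, was the other fall, at -0.25, outside the naming rule and chosen after its value was seen.

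Of 24 measured glucocorticoid response genes 1 rose, 5 fell and 18 did not pass, with a median difference of -0.14. The share called over all genes was 13.0%. Klf9, a transcription factor induced by glucocorticoids, read 7.74, 7.73, 7.81 and 7.74 in null, against 7.88, 8.26, 8.56 and 8.60 in WT skin, a difference of -0.57 (SE 0.11, adjusted p = 0.0117). Every null array lay below every WT array, as in 8.77% of all genes. Zbtb16, also induced by glucocorticoids, differed by -0.85 (SE 0.22, adjusted p = 0.0362), but its ranges overlapped, at 6.21 to 6.99 in null and 6.78 to 8.05 in WT skin.

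Lcn2, a siderophore-binding protein of inflamed epithelium, was the gene that rose, with 6.43, 7.39, 7.12 and 6.63 in null, against 4.73, 5.29, 6.65 and 4.93 in WT skin (difference 1.49, SE 0.38, adjusted p = 0.0317). Female WT 1 lay above 2 of the null arrays. Lcn2 is also known to be induced in inflammation. Chosen after their values were seen, Fkbp5, Tsc22d3 and Per1, among the most used glucocorticoid targets, had differences of -0.20, -0.37 and -0.38 with adjusted p of 0.755, 0.205 and 0.262. Other genes of the list went the other way, also chosen after their values were seen. Dusp1, Nfkbia and Ddit4 had differences of 0.22, 0.23 and 0.22 with limma adjusted p of 0.2113, 0.1905 and 0.2333.

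Of 9 measured mineralocorticoid response genes 4 rose, none fell and 5 did not pass, with a median difference of -0.0019. Over all genes 7.04% rose. The subunits of the epithelial sodium channel rose together. Scnn1g averaged 7.83 ± 0.09 in null and 6.91 ± 0.34 in WT skin (difference 0.92, SE 0.15, adjusted p = 0.00502), Scnn1b differed by 0.79 and Scnn1a by 0.42. Edn1, encoding a vasoconstrictor peptide, averaged 7.60 ± 0.23 in null and 6.21 ± 0.28 in WT skin, a difference of 1.39 (SE 0.15, adjusted p = 0.000867). In all 4 genes each null array lay above each WT array, an order that 10.1% of all genes had. Nr3c2 itself was among the members that fell. Scnn1a and Scnn1b were outside the naming rule and chosen after their values were seen.

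Of 20 measured estrogen-related receptor target genes 2 rose, 10 fell and 8 did not pass, with a median difference of -0.37. The share called over all genes was 13.0%. Cox6a2, a cytochrome oxidase subunit of muscle, read 6.38, 6.32, 5.98 and 6.18 in null, against 7.16, 6.98, 7.55 and 6.87 in WT skin, a difference of -0.93 (adjusted p = 0.00484). Pdk2, a kinase that inhibits pyruvate dehydrogenase, differed by -0.79 (adjusted p = 0.00614). Ppargc1a, the coactivator of these receptors, and Perm1, a muscle regulator that works with them, differed by -0.58 and -0.52, chosen after their values were seen. Ndufa4 and Cycs, expressed in most cells, rose by 0.57 and 0.28 (adjusted p = 0.000487 and 0.0139). Several genes that fell, such as Cox6a2 and, outside the naming rule, Ckmt2 (-0.64) and Mb (-0.54), are muscle genes, and the muscle list fell on the same arrays. Whether muscle content played a part in these falls was not tested.

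Chaperones that hold steroid receptors ready for hormone rose in 6 of 11 measured, none fell and 5 did not pass, with a median difference of 0.27. Over all genes 7.04% rose. Hsp90aa1 averaged 8.20 ± 0.15 in null and 7.58 ± 0.13 in WT skin (difference 0.62, adjusted p = 0.00352), and Hspa4 averaged 8.75 ± 0.08 in null and 8.33 ± 0.07 in WT skin (difference 0.42, adjusted p = 0.0035). Of 18 measured receptor coregulators 1 rose, 2 fell and 15 did not pass, with a median difference of 0.02. This was near the share of 13.0% called over all genes. Tbl1xr1, of a corepressor complex, rose by 0.23 (adjusted p = 0.0279), and the coactivators Ncoa3 and Crebbp fell by 0.30 and 0.22 (adjusted p = 0.0149 and 0.0278).

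Of 27 measured genes of steroid synthesis and inactivation 3 rose, 4 fell and 20 did not pass, with a median difference of -0.012. The share called over all genes was 13.0%. Cyp7b1, which hydroxylates oxysterols and neurosteroids, read 7.22, 7.64, 7.56 and 7.22 in null, against 4.98, 5.14, 5.10 and 5.07 in WT skin. The groups were far apart, with means of 7.41 ± 0.22 in null and 5.07 ± 0.07 in WT skin and a difference of 2.34 (SE 0.11, adjusted p = 4.217e-06), or 5.05-fold higher on the linear scale. Akr1c18, which inactivates progesterone in mouse ovary, averaged 10.71 ± 0.23 in null and 10.02 ± 0.43 in WT skin (difference 0.69, adjusted p = 0.00316), with overlapping arrays. Cyp17a1, a branch point enzyme of steroid synthesis, had a difference of -0.74 (adjusted p = 0.00204), and Hsd3b6, a hydroxysteroid dehydrogenase, one of -0.60 (adjusted p = 0.0142). Hsd11b1 and Hsd11b2, which activate and inactivate glucocorticoids, were at background and were not called. Hsd11b1 lay under the negative control median on all 8 arrays, and Hsd11b2 averaged 4.42 ± 0.11 in null and 4.43 ± 0.08 in WT skin. Both were named after their values were seen, outside the naming rule.

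**Figure D4:**
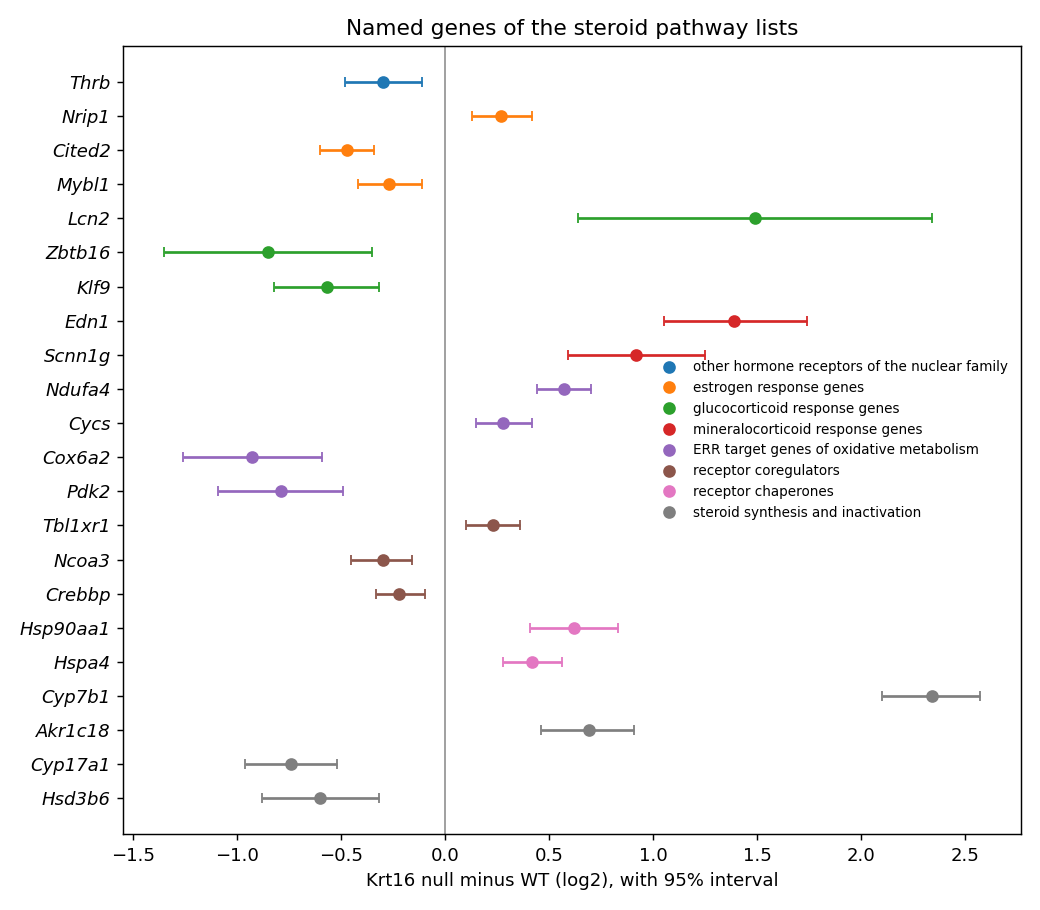
Difference between null and WT signals of 22 named genes of the 8 pathway lists, on the log2 scale with its 95% interval, coloured by list. Cyp7b1 lies farthest to the right at 2.34 and Cox6a2 farthest to the left at -0.93.

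The calls of these 22 named pathway genes were not equally firm. Leaving out each array in turn, 12 stayed called throughout and 10 lost the call at least once. Thrb, Zbtb16, Lcn2, Mybl1, Nrip1, Crebbp, Tbl1xr1, Ncoa3, Cycs and Hsd3b6 were those that did. With the muscle mean as a covariate 20 of the 22 were not called, with wider SEs, and Cyp7b1 (2.16) and Ndufa4 (0.57) were. Among those not called, Lcn2 was at 2.33, Zbtb16 at -1.36, Mybl1 at -0.45, Thrb at -0.44, Cited2 at -0.53 and Hsd3b6 at -0.73. Each of these was farther from 0 than without the covariate. The others not called were nearer to 0, among them Cox6a2 at -0.29, Pdk2 at -0.23 and Edn1 at 1.08.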

How the data were processed

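Forepaw skin RNA of 4 Krt16 null and 4 WT mice was hybridised to 1 Affymetrix array per mouse. The deposited values are log2 signals, 1 for each probe set on each array. Per the submitters' processing notes the authors used Partek and RMA. The sources used here give neither versions nor settings nor a genome build. RMA compresses large differences. Of 72688 probe sets, 6732 were controls. Of the other 65956, those with exactly 1 gene symbol in the array annotation gave 30672 genes. Where a gene had several probe sets (409 genes), the brightest was used. Arrays have no depth.

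The test was limma 3.58.1 under R 4.3.3, with lmFit, a trended eBayes prior and sex as a covariate (5 residual degrees of freedom), adjusted by Benjamini-Hochberg. A second model with 1 mean for each of the 4 sex and genotype groups (4 residual degrees of freedom) gave the effects in each sex. The fit was tested on simulated data. Python 3.11.15, numpy 2.4.6, pandas 2.3.3 and matplotlib 3.10.9 prepared tables and plots. p-values set a difference against the spread between mice, each read on 1 array, with the estimate of that spread moderated across genes. The members and lists were chosen with earlier results of these data known. Named were all members, Krt16, the 2 largest rises and 2 largest falls called in each list, and the 3 genes most like each of Esr1, Nr3c1 and Nr3c2; others are marked.

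The labels number the mice in each sex and genotype. Deviations of same-numbered mice correlated at 0.316 in males and 0.115 in females, over the limit of 0.1. A fit with these pairs as a replicate block was therefore run, although no label says that a number marks a litter. The fit was also repeated without the sex term, after median centring or a further quantile normalization, with dim genes filtered out, on the mean of probe sets, over all non-control probe sets, with array weights, with a robust prior, without the trend, the muscle mean (also, added later, fibroblast and adipocyte means) as a covariate, single sexes, and each array left out.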

Additional observations from a re-analysis of the deposited data

Results flagged for a closer look

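In 6 of 62 groups of 4 arrays examined, 1 array lay far from the other 3 by Dixon's test, and chance flags about 1 in 20 groups. Among the members, Nr3c2 read 5.83 on female null 1, against 5.64, 5.65 and 5.65 on the other null arrays. Esr2 read 3.98 on male WT 1, against 4.16, 4.17 and 4.20 on the other WT arrays, and Gper1 read 4.48 on female WT 2, against 4.77, 4.80 and 4.82. Among the pathway genes, Zbtb16 read 6.99 on female null 2 (6.21, 6.24 and 6.30 on the others), Klf9 read 7.81 on female null 1 (7.73, 7.74 and 7.74) and Pdk2 read 6.72 on male null 1 (6.45, 6.47 and 6.48). All values are log2 RMA signals.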

How the results depend on the processing

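Genes called higher and lower in null skin numbered 2159 and 1835. They numbered 257 and 118 with the muscle mean as a covariate, 1148 and 606 with the fibroblast mean, 794 and 384 in males alone, and 230 and 142 in females alone. With the adipocyte mean 1110 were lower. Without 1 array the counts ran from 1195 to 2279 higher and from 837 to 1856 lower. The members called, 3 as reported, numbered 0 with the muscle mean, 1 with the fibroblast and 1 with the adipocyte mean, 0 in males alone and 0 in females alone, 4 with array weights (Esr1 at -0.28, adjusted p = 0.0433), and 1 to 4 without 1 array. With same-numbered mice as pairs (replicate block) 2537 genes were higher and 2010 lower, 3 members were called, and no call of a named gene changed. The sign turned for Esr1 with the muscle mean (0.026). It also turned for Esrrb with repeated quantile normalization (-0.0061), array weights (-0.01) and males alone (-0.089), and without 1 array (-0.059 to 0.044). Gper1 turned with repeated quantile normalization (-0.0028), the fibroblast mean (-0.011) and males alone (-0.078), and without 1 array (-0.079 to 0.051). Esrrg without 1 array ran from -0.15 to 0.014. None of these was called, and the cause was not tested. Single-sex fits have fewer arrays. Filters on dim genes removed Pgr, Esr2 and Esrrb, and the stricter one also Esr1 and Gper1. Named pathway genes lost their call with median centring (Thrb, adjusted p = 0.0914, Mybl1 0.0578, Tbl1xr1 0.0582 and Crebbp 0.0752), over all non-control probe sets (Thrb 0.0699, Mybl1 0.0661 and Tbl1xr1 0.051), with the robust prior (Lcn2 0.115 and Zbtb16 0.0876), without the sex term (Zbtb16 0.053) and with repeated quantile normalization (Mybl1 0.0516), with differences that moved by at most 0.01. The fibroblast and adipocyte means were chosen after seeing the data.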

Other observations

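Markers of other cells moved on the same arrays. Of 10 macrophage markers 3 fell and 1 rose, with a median difference of -0.40 (log2, null minus WT). Of all genes 5.98% fell and 7.04% rose. Lyve1, a receptor of tissue macrophages and lymphatic vessels, differed by -1.21, Cd163, a scavenger receptor of macrophages, by -0.97 and C1qc, a complement component, by -0.59, while Itgam, an integrin of myeloid cells, differed by 0.71. Of 9 T cell markers 3 rose and none fell. Icos, a costimulatory receptor, differed by 1.22, Ctla4, an inhibitory receptor, by 0.59 and Cd3g by 0.20, and none of these sizes is exact. Icos was above the negative control median on all 4 null arrays (mean 4.95) and under it on all 4 WT arrays (mean 3.73), while Ctla4 and Cd3g lay under it on all 8. Among 10 keratinocyte markers Dsg3, a desmosomal cadherin, differed by 1.10 and Krt15, a keratin of basal cells, by -0.56, and the other 8 were not called. These genes were named after their values were seen, and their part in the receptor results was not tested.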
